A study of Mus musculus with 4 samples.

Results

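The comparison described here is *Tet2* KO against WT in the Lin-/CD11b+ sort, bone marrow cells taken as lineage-negative (Lin-) progenitors together with CD11b+ myeloid cells. Its members are the cells that the deposited cell table assigns to the 2 libraries of this sort, 4992 of the 8969 cells of the series. The WT library held 1924 cells and the *Tet2* KO library 3068. WT mice were Cre-negative *Tet2* fl/fl littermates, and *Tet2* KO mice were *Tet2* fl/fl with Mx1-Cre, a Cre driven by an interferon-inducible promoter. Mice of both genotypes carried the floxed allele, were 8 to 12 weeks old and were injected intraperitoneally 4 times with pI:pC at 12.5 ug/g. pI:pC is a synthetic double-stranded RNA that induces interferon. The sources used here do not state how long after pI:pC the cells were sorted. The cell table names 1 library per genotype for this sort, and its library names carry the same prefix in the GMP sort (granulocyte-monocyte progenitors). Cells of both sorts may therefore come from the same mice. With 1 library a side there is no replicate and no test was made, and genotype, mouse and preparation cannot be told apart. Intervals are at 95% and express counting error alone. In summed RNA fewer cells of a type and less RNA per cell cannot be told apart.

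TET2 is a dioxygenase that oxidizes 5-methylcytosine and so takes part in DNA demethylation, and its loss-of-function mutations are common in clonal hematopoiesis. Lin- bone marrow spans stem cells and committed progenitors, and CD11b (*Itgam*) is carried by monocytes, neutrophils and related mature myeloid cells. The comparison asks how the RNA of this mixture differs between the genotypes. The readouts for each gene were the summed UMIs of a library, scaled to the library total as CPM, and the share of cells with at least 1 UMI after each cell was thinned to 5000 UMIs.

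The WT library held 22681380 UMIs and the *Tet2* KO library 34024599, with medians of 11092 and 10417 UMIs per cell. At least 5% mitochondrial counts were found in 44 WT and 73 *Tet2* KO cells, and the libraries shared 7 cell barcodes, where the other pairs of libraries shared 4 to 8. The study's own list of cell numbers exchanges those of this WT library and of the *Tet2* KO GMP library, and the deposited assignment was used. This WT library held 158 plasma cell-like and 153 neutrophil-like cells, and the *Tet2* KO GMP library held 0 of each. *Itgam* was at 22.3 CPM in WT and 27.4 CPM in *Tet2* KO. *Tet2* itself was at 13.4 CPM in WT (interval 11.9 to 15.0) and 20.7 CPM in *Tet2* KO (19.2 to 22.2), but these are 3' tags that were not tied to the deleted part of the gene and check nothing about the deletion. The log2 ratio of *Tet2* was above 0 in each of the 8 types compared below (0.24 to 0.78) and was 0.38 in the GMP sort. *Xist* was at 1200 and 1309 CPM and *Kdm5d*, on the Y chromosome, had 0 UMIs in either library.

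Cells of the series were clustered anew, and 8 of the resulting types had 50 or more cells in each library. Marrow cells outside the intended myeloid and progenitor range were among them. HSPC-like cells (stem and early progenitor markers) made up 255 of 1924 WT cells (13.3%, exact binomial interval 11.8% to 14.9%) and 597 of 3068 *Tet2* KO cells (19.5%, 18.1% to 20.9%). Neutrophil-like cells made up 7.95% and 5.12%, neutro-biased GMP-like cells 7.95% and 5.61%, and plasma cell-like cells 8.21% and 5.51%. Monocyte-like cells, at 14.6% and 13.9%, and plasmacytoid dendritic-like cells, at 13.9% and 13.5%, had overlapping intervals. A finer clustering gave 225 and 275 plasmacytoid dendritic-like cells and 168 and 339 dendritic-like cells, so the shares of these types depend on the clustering. Leading genes of the plasmacytoid dendritic-like cells included *Siglech* and *Cox6a2* but also *Cd209a*, which is among the dendritic markers. At the finer setting *Cd209a* was a leading gene of a dendritic-like cluster of 152 and 260 cells. Values given below for plasmacytoid dendritic-like cells may therefore be those of a mixture. Mono-biased GMP-like cells made up 14.5% and 12.2%, and basophil or mast cell-like cells 3.43% and 3.32%. At the setting used here B cell-like cells (37 and 63) and dendritic-like cells (16 and 79) were too few in WT to be compared.

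**Figure D1:**
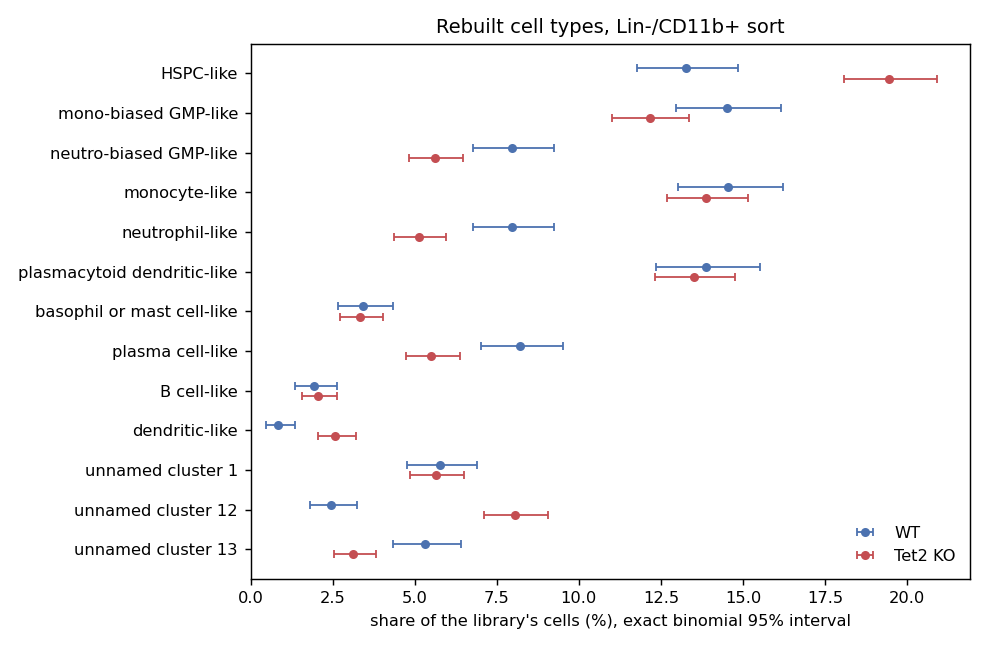
Share of the cells of each library (x axis, percent) in each rebuilt cell type or unnamed cluster (y axis), WT in blue and *Tet2* KO in red, points with exact binomial 95% intervals. HSPC-like cells sit higher in *Tet2* KO (19.5% against 13.3%), and neutrophil-like and plasma cell-like cells sit lower.

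Unnamed cluster 12 held 47 WT cells (2.44%) and 247 *Tet2* KO cells (8.05%). It carried 9 of 10 T or NK cell markers together with monocyte and acute-phase genes such as *Fn1*, *Clec4a3* and *Saa3*, and the finer clustering gave a T or NK cell-like cluster (16 and 84 cells) apart from an unnamed cluster led by *Wfdc17*, *Ccl6* and *Saa3* (31 and 170 cells). Several of its leading genes are among the genes that differ between the libraries, so its size is given as a location of UMIs and not as a separate result. The same holds for the dendritic-like cluster, whose markers include the MHC class II genes. Summed T or NK cell markers were at 394 CPM in WT and 391 CPM in *Tet2* KO, with 8 of 10 markers higher in *Tet2* KO and 0 at 0 UMIs in either library. This sum includes *Nkg7*, a leading gene of the neutro-biased GMP-like clusters, and does not measure T or NK cells alone. In the GMP sort it was at 817 and 847 CPM. Summed dendritic markers were at 2662 and 4214 CPM, with 9 of 12 higher in *Tet2* KO, and summed neutrophil markers at 30732 and 21791 CPM, with 2 of 12 higher. Plasma cell markers were at 76499 and 44803 CPM, with 2 of 10 higher, and macrophage markers at 21.6 and 23.8 CPM, with 7 of 10 higher and 1 at 0 UMIs in *Tet2* KO. Where cell makeup moves with a result, its value is also given with *Tet2* KO cells weighted to the WT shares of clusters, or with single clusters left out.

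Most genes were close in the WT and *Tet2* KO libraries. Of 8330 genes with a mean of at least 5 CPM, 95.7% differed by less than 1.5-fold, and the median log2 ratio of *Tet2* KO over WT was 0.08, with the 5th percentile at -0.25 and the 95th at 0.50. Since this median is above 0, more genes lay above 0 than below. Counts of list members above 0 are to be read beside it. At least 2-fold higher in *Tet2* KO were 59 genes (0.708% of the genes entered), and at least 2-fold lower were 35 (0.42%). By share of cells at equal depth, 19 of 8844 genes were at least 10 percentage points higher (0.215%) and 5 were at least 10 points lower (0.0565%). By both readouts, 10 genes were higher and *Ctse* was lower. The 10 were *Rsrp1*, *Rpgrip1*, *H2-Q7*, *Apoe*, *Ctsc*, *Wfdc17*, *Ifi27l2a*, *H2-Aa*, *H2-Ab1* and the immunoglobulin gene *Iglc1*. After weighting to WT cluster shares, 18 of the 59 higher genes and 26 of the 35 lower genes were still past 2-fold. Cluster 12 held more *Tet2* KO UMIs than any other type or cluster for 23 of the 59 higher genes, and 34 genes were 2-fold higher with that cluster left out of both libraries. Plasma cell-like cells held the most WT UMIs for 13 of the 35 lower genes and neutrophil-like cells for 7.

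**Figure D2:**
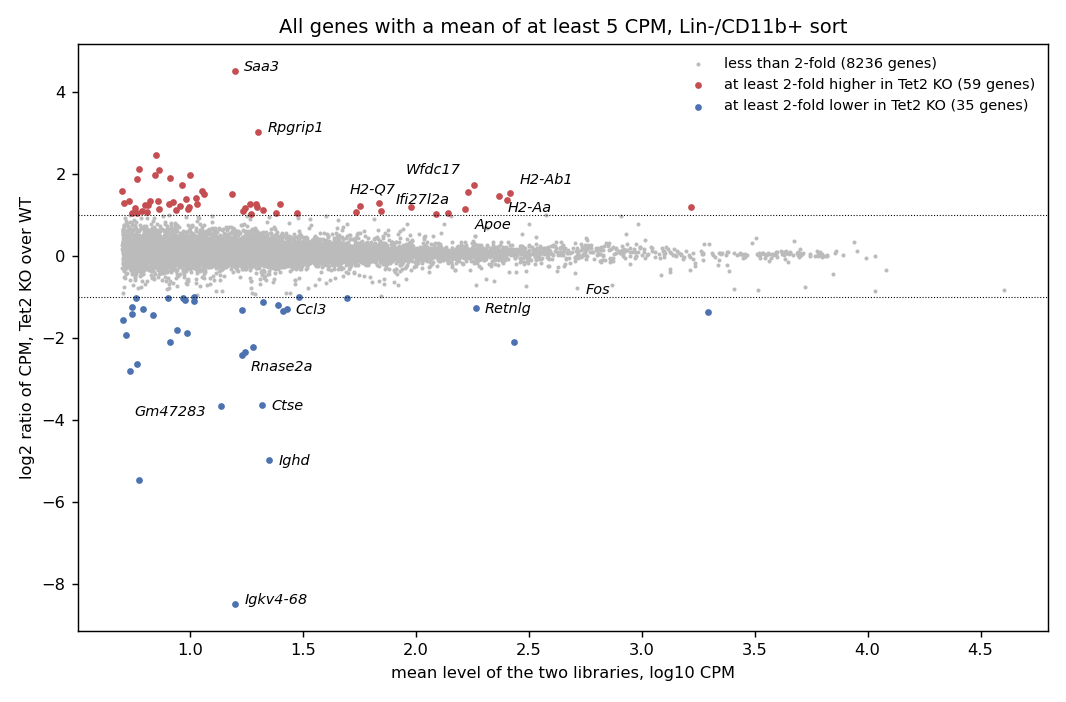
Ratio of *Tet2* KO to WT levels on a log2 scale (y axis) against the mean level of the libraries in log10 CPM (x axis) for the 8330 genes entered, each point a gene, with 59 genes at least 2-fold higher in red, 35 at least 2-fold lower in blue and dotted lines at 2-fold. *Saa3* and *Rpgrip1* lead the higher genes, and *Ctse* and *Gm47283* lie at least 12-fold lower beside immunoglobulin genes. The point of *Igkv4-68*, with 0 UMIs in *Tet2* KO, is a bound set by a floor of 3 counts.

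A few genes differed in the same direction in nearly every cell type. Of 4359 genes with at least 20 UMIs in each of the 8 types, *H2-Q7* and *Rsrp1* were at least 1.5-fold higher in every type (0.0459%) and *Ctse* and *Oser1* at least 1.5-fold lower in every type (0.0459%). *Rpgrip1* had enough UMIs but did not reach 1.5-fold in plasma cell-like cells, and *Gm47283* had under 20 UMIs in 3 types.

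*Ctse* encodes cathepsin E, an aspartic protease of the endosomal compartment, and lies on chromosome 1 (chr1:131638306-131675505, mm10, plus strand). It was at 38.4 CPM in WT (exact Poisson interval 35.9 to 41.0) and 3.12 CPM in *Tet2* KO (2.55 to 3.77), 12.3-fold lower, with a log2 ratio of -3.62 (-3.93 to -3.33). At equal depth 17.1% of WT cells and 1.76% of *Tet2* KO cells had a UMI, and before thinning 33.8% and 3.23%. By type, the WT level ran from 22.1 CPM in plasma cell-like cells to 127 CPM in basophil or mast cell-like cells, and the *Tet2* KO level was below 7 CPM in 7 of the 8 types. In monocyte-like cells 80 WT UMIs stood against 1 *Tet2* KO UMI. The exception was plasma cell-like cells, at 22.1 CPM (16.6 to 28.7) and 14.5 CPM (9.95 to 20.3), where 11.4% and 10.1% of cells had a UMI at equal depth. The plasma cell-like intervals overlap, while those of the other 7 types do not.

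*Rpgrip1*, known for its ciliary scaffold protein in photoreceptors, showed the opposite picture on chromosome 14 (chr14:52110704-52163546). It was at 4.41 CPM in WT (3.59 to 5.36) and 35.5 CPM in *Tet2* KO (33.6 to 37.6), 8.06-fold higher, with 2.34% and 14.4% of cells positive at equal depth. In mono-biased GMP-like cells 0 of 279 WT cells and 17.7% of *Tet2* KO cells had a UMI. Taking 3 counts as the limit, 0 of 279 allows up to 1.08% of cells with a UMI, and the exact binomial upper limit is 1.31%. In neutro-biased GMP-like cells the shares were 0 of 153 WT cells (up to 1.96% by 3 counts, exact binomial upper limit 2.38%) and 13.4%, and in HSPC-like cells 0.784% and 13.6%. Plasma cell-like cells again stood apart, with 3.80% and 3.55% of cells positive and levels of 8.83 and 8.32 CPM. WT UMIs of *Rpgrip1* were concentrated outside the myeloid types, with 29 of 100 in unnamed cluster 13, which carries *Dntt* and *Il7r*, 25 in plasmacytoid dendritic-like, 22 in plasma cell-like and 5 in B cell-like cells. In B cell-like cells the levels were 15.3 CPM (4.98 to 35.8) and 22.2 CPM (11.8 to 38.0), with overlapping intervals. Whether the plasma cell-like values of *Ctse* and *Rpgrip1* have a common source was not tested.

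*Gm47283* is annotated at the distal end of the Y chromosome (chrY:90784738-90816464), in the pseudoautosomal region shared with X. It was at 25.4 CPM in WT and 2.03 CPM in *Tet2* KO, 12.5-fold lower, with 10.6% and 0.848% of cells positive at equal depth. *Oser1* (chr2:163405822-163424697) encodes a serine-rich protein responsive to oxidative stress. It was at 92.7 CPM in WT (88.8 to 96.7) and 47.4 CPM in *Tet2* KO (45.1 to 49.8), a log2 ratio of -0.97 that stayed between -1.80 and -0.80 over the 8 types. Its share of positive cells at equal depth was 34.8% and 19.7%, and within plasma cell-like cells 6.33% and 3.55%.

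*Rsrp1* (chr4:134923592-134927671), a gene for an arginine- and serine-rich protein, was at 90.8 CPM in WT (86.9 to 94.8) and 187 CPM in *Tet2* KO (182 to 191). Its log2 ratios by type lay between 0.73 and 1.07, the narrowest range of the 4 genes shifted in each type. At equal depth 35.9% of WT cells and 59.6% of *Tet2* KO cells were positive, the widest gap among the genes higher by share. *H2-Q7* (chr17:35439155-35443773), a nonclassical MHC class I gene, was at 57.6 CPM in WT (54.5 to 60.8) and 133 CPM in *Tet2* KO (129 to 137). Its share at equal depth was 20.6% and 40.1%, and 41.2% and 70.4% among HSPC-like cells. In plasma cell-like cells these shares were 21.5% and 24.9%, although the level there was 2-fold higher in *Tet2* KO, with a log2 ratio of 1.07. *H2-Q6*, its neighbour and close relative, had a log2 ratio of 1.04, and reads of so similar genes may be split between them.

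**Figure D3:**
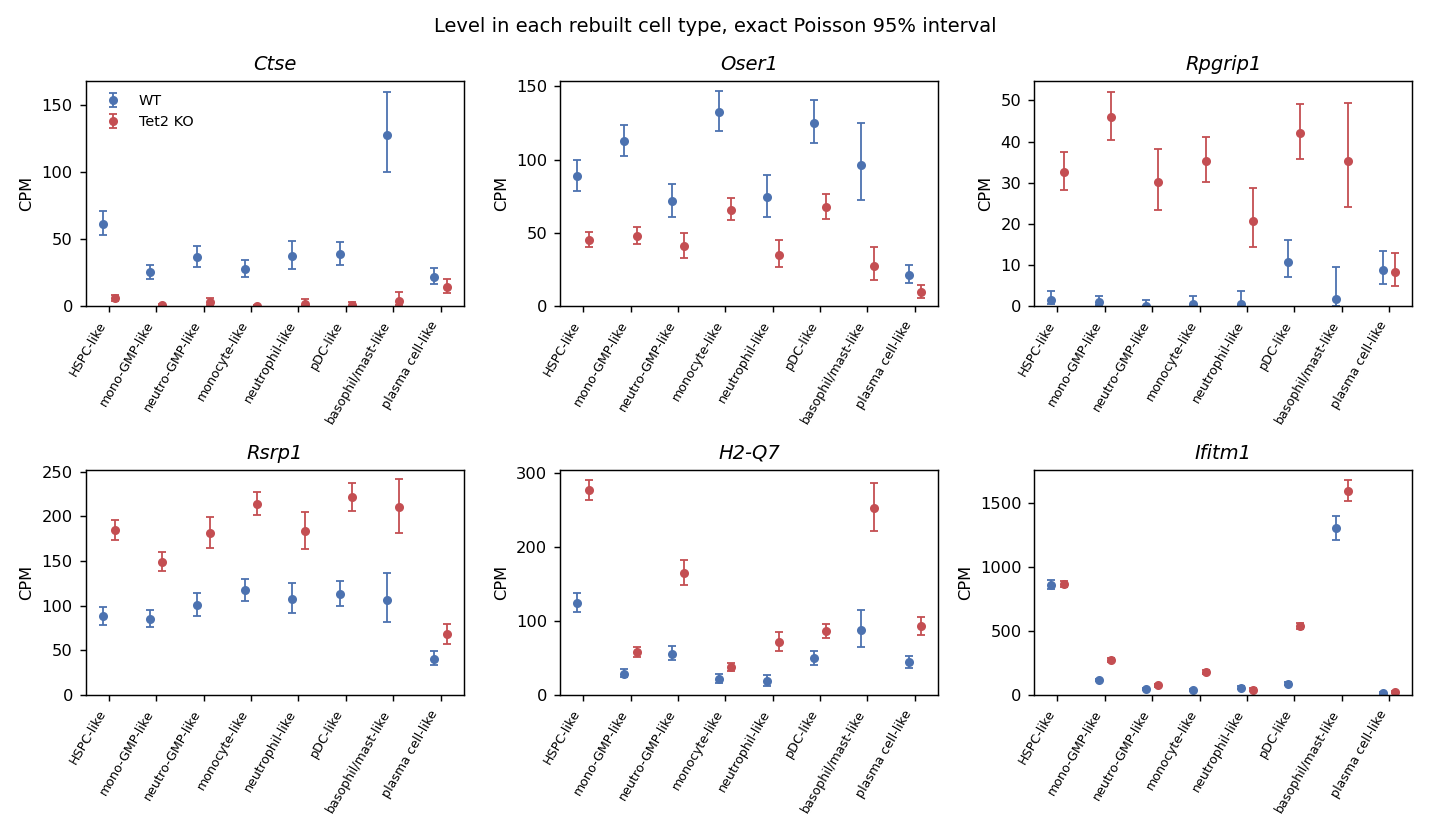
Level in CPM (y axes, each from 0) of *Ctse*, *Oser1*, *Rpgrip1*, *Rsrp1*, *H2-Q7* and *Ifitm1* in the 8 rebuilt types (x axes), WT in blue and *Tet2* KO in red, with exact Poisson 95% intervals. *Ctse* and *Rpgrip1* separate the libraries in 7 types and overlap in plasma cell-like cells, while *Ifitm1* is level in HSPC-like cells and apart in plasmacytoid dendritic-like, monocyte-like and mono-biased GMP-like cells.

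*Ctse*, *Gm47283*, *Oser1*, *Rpgrip1*, *Rsrp1* and *H2-Q7* were also read in the GMP sort, which may come from the same mice and is no replicate of the genotype. There *Ctse* was at 50.7 and 1.64 CPM (log2 ratio -4.95), *Gm47283* had a log2 ratio of -4.01 and *Oser1* of -1.04. *Rpgrip1* was at 0.743 and 34.4 CPM (5.53), *Rsrp1* had a log2 ratio of 0.89 and *H2-Q7* of 0.83. The direction was that of the Lin-/CD11b+ sort for all 6. Of the 59 higher genes, 21 were at 5 CPM or more in the GMP sort, of which *Rpgrip1*, *Ly6i*, *Hspa1a* and *Ms4a6d* were at least 2-fold higher there and *H2-Aa* and *H2-Eb1* at least 2-fold lower. Over all 7882 genes entered in the GMP sort, 13 were at least 2-fold higher (0.165%) and 41 at least 2-fold lower (0.52%). *Ms4a6d* was named after its values were seen. Of the 35 lower genes, 14 were measured at that level, of which 9 were at least 2-fold lower there.

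Genes of MHC class II, which present peptides to CD4+ T cells, were higher in the *Tet2* KO library. Of 11 listed genes 10 entered, 10 had a ratio above 1, and 4 were at least 2-fold higher (0.708% of all genes were). The median log2 ratio was 0.82 against 0.08 for all genes. *H2-Aa* was at 124 CPM in WT and 342 CPM in *Tet2* KO (log2 ratio 1.47, 1.41 to 1.53), *H2-Ab1* at 135 and 389 CPM (1.53) and *H2-Eb1* at 85.5 and 253 CPM (1.56). *Ciita*, the transactivator of the class II genes, was at 3.44 and 12.8 CPM (1.89, 1.54 to 2.26). The share of cells with *H2-Ab1* at equal depth was 15.2% and 27.9%.

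The class II genes are among those that define the dendritic-like cluster, so the part of cell makeup in this difference cannot be read from these clusters. With WT cluster shares the list median was 0.56, *Ciita* was the 1 gene still past 2-fold, and *H2-Aa* and *H2-Ab1* were at log2 ratios of 0.88 and 0.92. Dendritic-like cells held 40.9% of the *Tet2* KO UMIs of *H2-Aa* and 34.4% of the WT UMIs, and without them its ratio was 1.34. Within types the list median was 1.15 in HSPC-like cells, 1.05 in monocyte-like cells, 0.91 in plasma cell-like cells and -0.62 in basophil or mast cell-like cells. Lower positive medians belonged to the GMP-like types, 0.52 for the mono-biased and 0.18 for the neutro-biased one. Neutrophil-like cells were at 0.46, where all genes of that type had a median of 0.25. The summed class II level had log2 ratios of 0.24 in monocyte-like cells, 0.11 in neutrophil-like cells and 0.06 (-0.04 to 0.17) in mono-biased GMP-like cells. These are below the list medians. It was 0.41 in neutro-biased GMP-like cells, above the list median there, and 1.06 in HSPC-like cells. In plasma cell-like, plasmacytoid dendritic-like and basophil or mast cell-like cells it was 0.62, 1.45 and -1.09. In HSPC-like cells *H2-Aa* went from 49 UMIs in WT to 494 in *Tet2* KO, a log2 ratio of 2.37. The median of 1.53 in plasmacytoid dendritic-like cells depended on the clustering. At the finer setting these cells numbered 225 and 275 with a median of 0.50, and a dendritic-like cluster of 168 and 339 cells had a median of 1.31. At that setting neutro-biased GMP-like cells were at -0.20 and mono-biased GMP-like cells at 1.16. In the GMP sort the class II list went the other way, with a median of -0.59 and log2 ratios of -1.06 for *H2-Aa* and -1.08 for *H2-Eb1*. Dendritic-like cells were 9 of 1258 WT and 8 of 2719 *Tet2* KO cells of that sort, and the part of cell makeup was not tested.

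MHC class I and its peptide-loading genes had a median log2 ratio of 0.32, with 18 of 20 above 0 and 3 at least 2-fold higher (0.708% of all genes were). These were *H2-Q7*, *H2-Q6* and *Nlrc5*, the transactivator of class I genes, which was at 3.88 and 8.32 CPM (log2 ratio 1.10, 0.75 to 1.46). The list median was 0.21 with WT cluster shares, and *H2-Q7* was still past 2-fold, with *H2-Q6* at 0.84 and *Nlrc5* at 0.89. The list median was above 0 in each of the 8 types, from 0.11 in mono-biased GMP-like to 0.47 in neutrophil-like cells. Over all genes of these types the medians were 0.04 and 0.25.

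Genes of the type I interferon response were higher in *Tet2* KO by a median of 0.58, with 24 of the 25 entered above 0, 8 at least 2-fold higher and 0 at least 2-fold lower, where 0.708% of all genes were at least 2-fold higher. *Ifi27l2a* was at 142 and 365 CPM (log2 ratio 1.36), *Ifi205*, a DNA-sensing family member, at 5.69 and 16.9 CPM (1.57), *Rtp4* at 5.33 and 13.8 CPM (1.38) and *Oasl2* at 4.50 and 9.96 CPM (1.15). With WT cluster shares the list median was 0.32 and 1 of the 8, *Ifi27l2a*, was still past 2-fold. Within types it ran from 0.13 in neutrophil-like to 0.51 in plasmacytoid dendritic-like cells, basophil or mast cell-like cells aside. Over all genes of these types the medians were 0.25 and 0.01. In neutrophil-like cells the list median was thus below that of all genes. In basophil or mast cell-like cells, which had the fewest UMIs, it was -0.69. The floor on counts gives this same value to a gene with 0 UMIs in both libraries of that type. The median there is therefore not read as a fall. The summed level of the list in that type had a log2 ratio of -0.53 (-0.74 to -0.32). The plasmacytoid dendritic-like value was 0.02 at the finer clustering, where the dendritic-like cluster was at 0.77. Cluster 12 held 33.0% of the *Tet2* KO UMIs of *Ifi27l2a*, and without that cluster its log2 ratio was 1.01. The interferon-induced GTPases, which defend the cytosol against pathogens, had a median of 0.75 over 5 genes, with *Gbp2* at 5.47 and 12.6 CPM (1.21) and *Igtp* at 6.04 and 13.8 CPM (1.19). Its median was 0.62 with WT cluster shares, and 0 genes were then past 2-fold. At a minimum of 20 CPM the list rested on *Gbp3* alone, named after its values were seen, at a log2 ratio of -0.02.

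Both genotypes received pI:pC, and interferon-responsive genes are marked by a shared promoter element, the interferon-stimulated response element. Its letters GAAA, any 2 bases (NN) and again GAAA were searched on either strand in the 250 bases before each gene's start in RefSeq (GRCm38.p6). They were found in 3.51% of 6615 entered genes with a window, in 11 of 19 type I interferon genes, in 5 of 5 GTPases, in 3 of 17 class I genes and in 0 of 7 class II genes. Of the genes at least 2-fold higher, 6 of 40 held the letters, and of those at least 2-fold lower 1 of 19. A match describes letters only. The stretches below were chosen from members with a match, and the window of *Oasl2* held 0 matches. Stretches from 3 members past 2-fold are shown 5′ to 3′ to make the shared element visible, with the match in capitals, and in *Gbp2* it lies on the opposite strand. They are chr1:174031855-174031914 on the minus strand (*Ifi205*), chr11:58199497-58199555 on the plus strand (*Igtp*) and chr3:142620579-142620638 on the plus strand (*Gbp2*), with matches that begin 134, 34 and 59 bases before the start.
Ifi205: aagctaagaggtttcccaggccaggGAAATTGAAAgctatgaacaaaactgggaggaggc
Igtp: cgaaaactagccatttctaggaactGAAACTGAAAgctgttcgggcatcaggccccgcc
Gbp2: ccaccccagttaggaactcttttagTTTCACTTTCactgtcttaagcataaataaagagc

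*Ifitm1*, an interferon-induced membrane protein that is also a marker of early progenitors, was at 234 CPM in WT and 399 CPM in *Tet2* KO (log2 ratio 0.77). Its share at equal depth was 30.4% and 51.1%. In HSPC-like cells, where it is abundant, the log2 ratio was 0.01. It was 2.57 in plasmacytoid dendritic-like cells (19.9% and 58.5% of cells positive), 2.19 in monocyte-like cells (11.1% and 34.3%) and 1.21 in mono-biased GMP-like cells (27.2% and 51.7%). The plasmacytoid dendritic-like value belongs to the first clustering, where these cells may be a mixture. The finer clustering gave 225 and 275 such cells, and the *Ifitm1* value within them is not given here. For comparison, 3.16% and 4.14% of plasma cell-like cells were positive, with each cell at 5000 UMIs. The share that free RNA gives was not measured.

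Inflammatory genes differed in both directions, with 4 of 15 at least 2-fold higher (0.708% of all genes were), 3 at least 2-fold lower (0.42%) and a median log2 ratio of 0.20. *Saa3*, an acute-phase protein gene, was at 1.32 CPM in WT (0.892 to 1.89) and 30.2 CPM in *Tet2* KO (28.4 to 32.1), 22.9-fold higher. It was seen in few cells, 0.520% and 2.84% at equal depth, and cluster 12 held 64.3% of its *Tet2* KO UMIs. Without cluster 12 its log2 ratio was 3.1 in place of 4.52. *Wfdc17*, a secreted protein of the whey acidic protein family, was at 84.3 and 278 CPM (log2 ratio 1.72) and at 21.9% and 37.1% of cells. In monocyte-like cells 49.6% and 72.5% were positive for *Wfdc17*, against 3.03% and 3.92% of basophil or mast cell-like cells. *Apoe*, a lipid carrier, was at 103 and 228 CPM (1.15), of which cluster 12 held 43.1% in *Tet2* KO, and the ratio without that cluster was 0.63. The chemokine *Ccl5* was at 34.1 and 78.8 CPM (1.21), with 74.7% of *Tet2* KO UMIs in cluster 12, and was at 0.25 with WT cluster shares.

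The chemokines *Ccl3*, *Ccl4* and *Cxcl2* went the other way. *Ccl3* was at 37.9 and 15.6 CPM (log2 ratio -1.28, -1.44 to -1.13), *Ccl4* at 28.7 and 13.3 CPM (-1.11) and *Cxcl2*, which attracts neutrophils, at 7.50 and 2.56 CPM (-1.55). With WT cluster shares these ratios were -1.47, -1.39 and -1.68, so they did not shrink. Without neutrophil-like cells, which held 48.8% of its WT UMIs, *Cxcl2* was at -0.66.

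Immediate early genes, which cells switch on within minutes of a stimulus and also during tissue dissociation, were lower in *Tet2* KO by a median of -0.25, with 5 of 17 above 0. *Fos* was at 652 CPM in WT and 378 CPM in *Tet2* KO (log2 ratio -0.79), with 79.3% and 67.2% of cells positive at equal depth. *Ier2* was at 267 and 175 CPM, with 65.7% and 55.5% of cells positive, and *Nr4a1* at 12.8 and 6.08 CPM (-1.08). The log2 ratio of *Fos* was below 0 in each of the 8 types, lowest in mono-biased GMP-like cells (-1.11) and nearest to 0 in the neutro-biased ones (-0.26). In the GMP sort the list median was -0.64. A difference in handling between the preparations cannot be told apart from genotype here.

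**Figure D4:**
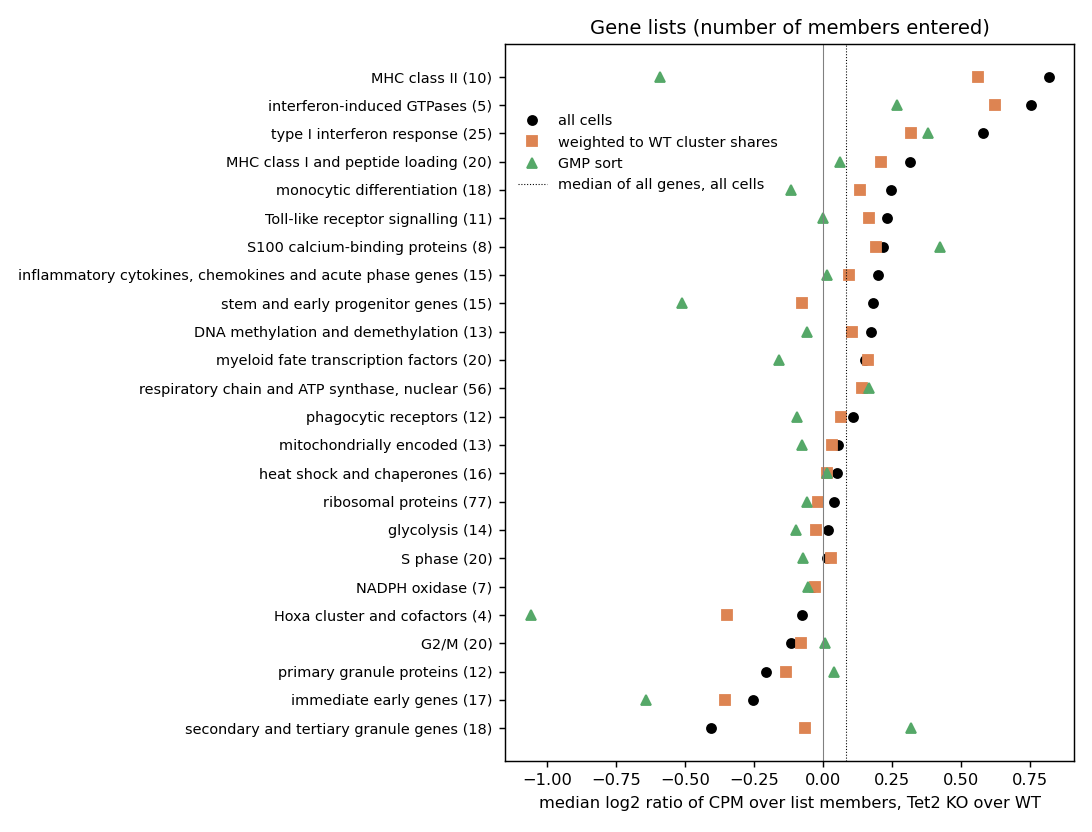
Median log2 ratio over the members of each gene list (x axis), *Tet2* KO over WT, for all cells (circles), for *Tet2* KO cells weighted to WT cluster shares (squares) and in the GMP sort (triangles), with the number of members entered in brackets and the median of all genes, 0.08, as a dotted line. MHC class II and interferon lists lie highest in all cells, the class II and stem cell lists lie below 0 in the GMP sort, and the secondary and tertiary granule list moves from -0.41 to -0.06 with WT cluster shares.

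Granule genes of neutrophils are made in order, primary granule proteins in early progenitors and secondary and tertiary granule genes in later stages. Over the whole library the primary granule list had a median log2 ratio of -0.21 and the secondary and tertiary list -0.41, with *Olfm4*, *Retnlg* and *Cd177* at least 2-fold lower. *Retnlg* was at 261 CPM in WT and 108 CPM in *Tet2* KO (log2 ratio -1.27). Neutrophil-like cells held 92.0% of its WT UMIs, and without these cells its ratio was 1.33, the opposite direction. The secondary and tertiary list likewise went to 0.70 without neutrophil-like cells. Within neutrophil-like cells primary granule genes had a median of 1.10, with 6 of 12 at least 2-fold higher (8.0% of all genes of that type), and secondary and tertiary granule genes a median of -0.47, beside a median of 0.25 over all genes of that type. Ribosomal protein genes were at 0.38 there. *Ctsc*, the protease that activates the granule serine proteases, was at 81.6 and 164 CPM over the whole library (1.01), and at 0.87 with WT cluster shares. Monocyte-like cells held 42.0% of its WT and 42.6% of its *Tet2* KO UMIs.

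Monocytic differentiation genes had a median of 0.25, with 14 of 18 above 0. The C-type lectin genes *Clec4a1* and *Clec4a3* were each at a log2 ratio of 1.27, and at 0.52 and 0.42 without cluster 12, which held 59.5% and 61.2% of their *Tet2* KO UMIs. *Rnase2a*, an eosinophil-associated ribonuclease gene, was at 28.4 CPM in WT and 5.35 CPM in *Tet2* KO (log2 ratio -2.41), and monocyte-like cells held 72.6% of its WT UMIs. In monocyte-like cells it went from 468 UMIs to 118. *Lpl*, which encodes lipoprotein lipase, was at 4.06 and 15.9 CPM (1.97) and *Hspa1a*, an inducible heat shock protein gene, at 2.82 and 11.1 CPM (1.97). These ratios were 1.70 and 1.95 with WT cluster shares. Other chaperones did not follow *Hspa1a*, and the median over 16 was 0.05. The Fc receptor gene *Fcgr1* was at 4.76 and 11.4 CPM (1.26), and at 0.93 with WT cluster shares. *Pla2g7* and *Ly6i* had ratios of 1.88 and 1.74, at 0.71 and 1.18 without cluster 12.

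Lymphoid genes at the ends of the ranking came from few cells. *Cd3g*, *Cd3d* and *Trbc2*, parts of the T cell receptor complex, had log2 ratios of 2.46, 2.12 and 2.10, and cluster 12 held 77.3%, 79.8% and 84.5% of their *Tet2* KO UMIs. With WT cluster shares they were at 1.41, 1.0 and 0.89. Of 18 immunoglobulin genes entered, 8 were at least 2-fold lower (0.42% of all genes were) and 1 at least 2-fold higher (0.708%). *Igkv4-68* had 717 UMIs in WT, with 100% of them in 3 cells, and 0 in *Tet2* KO, at least 358.5-fold lower against a floor of 3 counts per library, and the interval of its log2 ratio ended at -8.18. *Ighd* was at 43.4 and 1.38 CPM, with 94.0% of WT UMIs in 3 cells, and *Igkv3-12* at 9.96 and 1.62 CPM, with 98.2% in 3 cells. *Ighv1-55* was at 11.6 and 0.265 CPM and *Igkv6-15* at 9.48 and 1.35 CPM, with 75.8% and 51.2% of WT UMIs in 3 cells. In 7 of the lower genes 3 WT cells held at least 50% of the UMIs, and in 0 of the higher genes did 3 *Tet2* KO cells. The higher one, *Iglc1*, a light chain gene named after its values were seen, was at 1001 and 2294 CPM, with 78.4% of WT UMIs in 3 cells. *Mt2*, a metallothionein, and *Ly6k* were lower at log2 ratios of -2.23 and -2.33, and plasma cell-like cells held 94.1% and 64.9% of their WT UMIs.

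*Slpi*, a protease inhibitor gene, was lower by share, 62.1% and 52.0% of cells at equal depth, but not by level, at 811 and 844 CPM. Plasma cell-like cells held 52.5% of its WT UMIs and 69.3% of its *Tet2* KO UMIs. The share was 88.9% and 72.8% in monocyte-like cells and 89.9% and 91.7% in plasma cell-like cells.

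Stem and early progenitor genes had a median log2 ratio of 0.18, with 10 of 15 above 0 and 0 past 2-fold. With WT cluster shares the median was -0.08, and within HSPC-like cells it was 0.05. Myeloid fate transcription factors had a median of 0.15, with *Batf3*, a factor of conventional dendritic cells, at 5.42 and 11.9 CPM (1.13) and at 0.70 without dendritic-like cells. S100 genes had a median of 0.22 and phagocytic receptors of 0.11. Nuclear respiratory chain and ATP synthase genes were above 0 in 53 of 56 cases, at a median of 0.15 where all genes were at 0.08. Mitochondrially encoded genes were at 0.05. Genes of DNA methylation and demethylation were at 0.17, Toll-like receptor signalling at 0.23, NADPH oxidase at -0.04, Hoxa genes and cofactors at -0.08, glycolysis at 0.02, S phase at 0.01, G2/M at -0.12 and ribosomal proteins at 0.04. Across these lists 1 gene besides *Batf3*, *Fcgr1*, was past 2-fold before weighting to WT cluster shares.

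**Figure D5:**
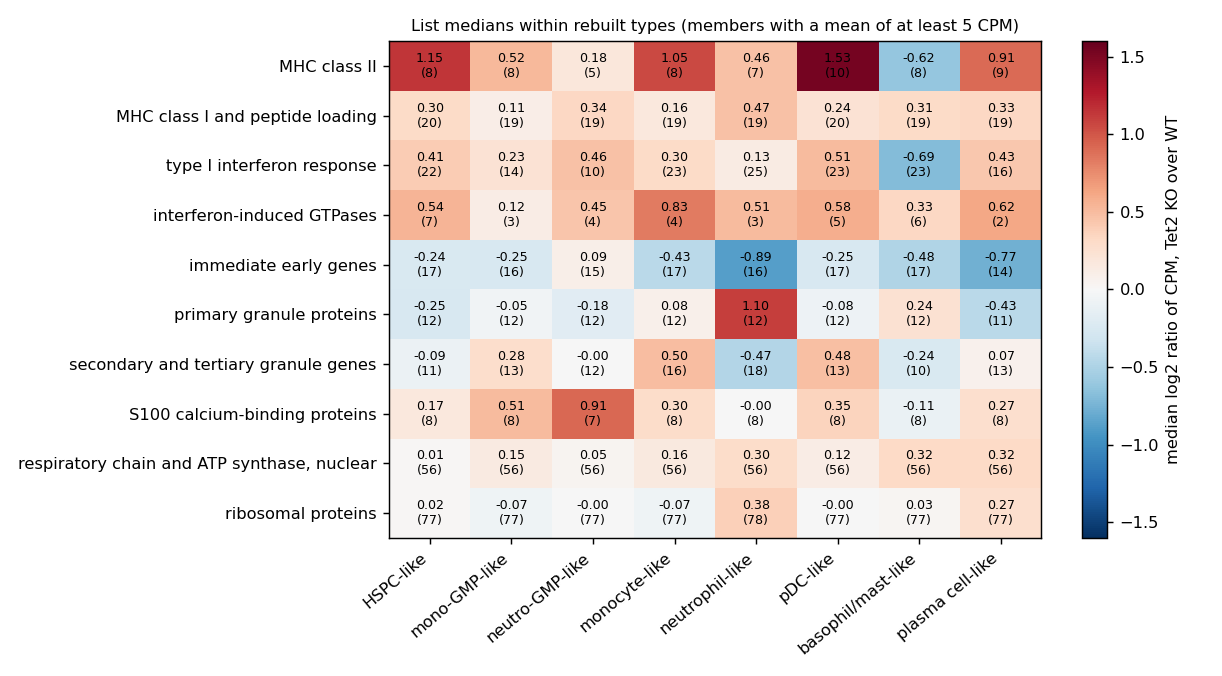
Median log2 ratio, *Tet2* KO over WT, of 10 gene lists (rows) within the 8 rebuilt types (columns), on a scale from blue (lower in *Tet2* KO) to red (higher), with the number of members entered in brackets. MHC class II is highest in plasmacytoid dendritic-like (1.53) and HSPC-like cells (1.15), and primary granule proteins are highest in neutrophil-like cells (1.10).

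The number of genes past 2-fold varied widely between types. HSPC-like cells, with 3184112 WT UMIs, had 82 genes higher (0.964%) and 39 lower (0.458%) of 8507 entered. Basophil or mast cell-like cells, with 580847 WT UMIs, had 559 higher (6.86%) and 621 lower (7.62%) of 8146. Neutrophil-like cells had 556 higher (8.0%) and 149 lower (2.14%) of 6953, and plasma cell-like cells 218 higher (4.1%) and 122 lower (2.3%) of 5314. Mono-biased GMP-like cells had 80 higher (1.02%) and 48 lower (0.61%) of 7873, and neutro-biased GMP-like cells 126 higher (1.66%) and 96 lower (1.27%) of 7585. Monocyte-like cells had 113 higher (1.42%) and 69 lower (0.868%) of 7953, and plasmacytoid dendritic-like cells 177 higher (2.08%) and 114 lower (1.34%) of 8490.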

How the data were processed

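RNA was measured in single mouse bone marrow cells by droplet sequencing. The authors mapped and counted reads with Cell Ranger 3.1.0 (genome build mm10, per the submitters' processing notes), filtered in Seurat, and deposited raw UMI counts per gene and cell with a table of each cell's library, UMI count and gene number. Although the methods state a limit on mitochondrial counts, cells over it are in the deposited counts and were kept. Sources differ on the reagent kit, v2 in the methods and a later version in the design text.

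UMIs were summed per library and scaled to CPM. Genes entered at a mean of 5 CPM. Ratios carry exact conditional binomial intervals, levels exact Poisson and shares exact binomial intervals, and a library under 3 UMIs was set to a floor of 3 counts per library. For shares, cells were thinned without replacement to 5000 UMIs and genes entered at a mean share of 2%. With 1 library a side no test was made.

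Types were rebuilt over the cells of the 4 libraries (scaling to 10000, 2000 variable genes, 30 principal components, 30 neighbours, Leiden resolution 0.8, alternative 1.2) and named from fixed markers, at least 3 of them 1.5-fold above other cells. After the clusters were seen, 2 whose leading genes went against their names (12 and 13) were left unnamed. No doublets were removed, since Scrublet called 0.346% of cells, too few to be informative. The comparison, lists and rules were chosen with earlier results of these data known. Named genes were the 10 highest and 10 lowest ratios, the 5 largest differences each way by share, up to 4 members each way past 2-fold in each list, up to 5 each way shifted 1.5-fold in each type, *Tet2* and sex-linked genes. Of the macrophage list 2 genes entered (median log2 ratio 0.52), and of the sex-linked list 2 (0.09).

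Tools were scanpy 1.11.5, leidenalg 0.10.2, numpy 2.4.6, scipy 1.17.1, pandas 2.3.3 and matplotlib 3.10.9 in Python 3.11.15, and edgeR 4.0.16 in R 4.3.3 for TMM factors.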

Additional observations from a re-analysis of the deposited data

Results flagged for a closer look

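The MHC class II genes *H2-Aa* and *H2-Eb1* went in opposite directions in the Lin-/CD11b+ and GMP sorts, which may come from the same mice. The log2 ratio of *Tet2* KO over WT was 1.47 for *H2-Aa* in the Lin-/CD11b+ sort and -1.06 in the GMP sort, and 1.56 and -1.08 for *H2-Eb1*. In the GMP sort dendritic-like cells numbered 9 of 1258 WT and 8 of 2719 *Tet2* KO cells, and HSPC-like cells 206 and 285. The part of cell makeup in the GMP values was not tested. With 1 library per genotype and sort, the difference between the sorts was not tested.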

How the results depend on the processing

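The count of genes at least 2-fold higher was 59, and 50 with TMM or median-of-ratios factors, which shift log2 ratios by -0.08. It was 18 with WT cluster shares, 34 without cluster 12 (chosen after seeing the data, as were the settings without dendritic-like or neutrophil-like cells), 551 with no minimum level and 18 at a minimum mean of 20 CPM. The count at least 2-fold lower was 35, 599 with no minimum and 11 at 20 CPM. By share, 19 genes were higher, 10 when thinned to 2500 UMIs and 8 with WT cluster shares, and 5 were lower, 13 without thinning and 8 with WT cluster shares. At Leiden resolution 1.2 neutro-biased GMP-like cells had 76 higher and 57 lower genes in place of 126 and 96, and plasmacytoid dendritic-like cells 100 higher in place of 177. Direction turned for the medians of secondary and tertiary granule genes (0.70) and for *Olfm4* (0.98) and *Retnlg* (1.33) without neutrophil-like cells, for stem and early progenitor genes (-0.076) with WT cluster shares, and for interferon-induced GTPases at 20 CPM (-0.025), where 1 gene of that list is left. The cause was not tested beyond what each setting leaves out. No paired analysis was possible because the groups share 1 replicate number and each holds 1 library. The Hoxa list had no gene left at a minimum of 20 CPM and gives no value there. Depth limits the values of basophil or mast cell-like cells most, with 580847 WT UMIs.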
